A study of Rattus norvegicus with 9 samples.

Results

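CC-531 cells cultured in matrigel as organoids were compared, across all genes, with CC-531 cells cultured in 2D. The 6 libraries were chosen by their labels, organoids at passages 7, 8 and 9 (p7, p8 and p9) and cells at passages 5, 8 and 11 (p5, p8 and p11), out of 9 libraries in all. The other 3 libraries, of CC-531 tumors grown in the rat peritoneum, entered only the filter on low genes, the scaling between libraries and the estimate of the spread. CC-531 is a colon carcinoma line of WAG/Rij rats, which the study uses as a model for treating peritoneal metastases with oxaliplatin or mitomycin-C. The cells were grown in RPMI1640 medium with HEPES, fetal bovine serum and penicillin, streptomycin and glutamine, and the organoids were started from CC-531 cells. None of the 6 libraries was labelled as given a drug or heat, and a separate medium for the organoids is not given in the sources used here. All libraries come from 1 line, and apart from the passages no source says that they were separate cultures, so a p-value here reflects how far these libraries scatter, which may be technical. The passages also differ between the sample types, with only passage 8 in both.

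Matrigel is an extract rich in basement membrane proteins in which epithelial cells form round, closed structures, whereas cells on plastic spread flat and pull on it through actin fibres and focal adhesions. Under such tension the coactivator YAP and its DNA-binding partners of the TEAD family drive genes such as Ccn1 and Ccn2. In a cluster of cells, oxygen has to diffuse inwards, and when it runs low the hypoxia-inducible factor HIF drives glycolysis genes and Ca9. When sterols in the cell run low, the factor SREBP drives the genes of cholesterol synthesis. The normal colon epithelium renews from Lgr5-positive stem cells, which give absorptive cells with a brush border and goblet cells that secrete mucus.

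The libraries held 15968793 to 24335921 counts, with overlap between the sample types, and 3 counts in a library correspond to 0.13 to 0.2 CPM (counts scaled to the library total). Organoids p7 stood apart from the other organoids: 2089 genes differed by more than 2-fold between p7 and p8 and 2006 between p7 and p9, against 7 between p8 and p9. The cell libraries differed from each other by more than 2-fold in 273 to 907 genes. Between p8 and p9 the chi-square of the counts was 4.58 per gene, above the sampling noise of about 1 but far below the 38.7 to 199 of the other pairs within a sample type, so these 2 organoid libraries are the closest pair. Both sample types expressed the epithelial genes Epcam (874, 705 and 594 CPM in cells and 761, 979 and 946 CPM in organoids) and Cdh1, which codes for E-cadherin (719, 706 and 600.2 CPM in cells and 757, 901 and 869 CPM in organoids), and neither passed the test (log2 fold change 0.31 and 0.32). Of the listed markers of other cells, 26 to 33 of 39 matrix and fibroblast genes had reads in each of the 6 libraries, as did 11 or 12 of 17 endothelial (summed level 39 to 102 CPM), 8 to 11 of 15 pericyte and smooth muscle (73.4 to 223 CPM), 11 to 14 of 28 leukocyte and 4 of 8 red cell genes. Among genes chosen after their values were seen, Dcn and Lum of fibroblasts, Kdr of endothelium, Cd3e of T cells and Hbb of red cells had no read in any of the 6 libraries.

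In organoids, 859 of 13331 genes tested rose (6.44%) and 572 fell (4.29%) at a Benjamini-Hochberg adjusted p under 0.05 by edgeR's quasi-likelihood test, and 763 and 440 of these did so by at least 2-fold. The median log2 fold change over all genes tested was 0.03. Log2 fold changes come from this fit, with their standard error (SE) and adjusted p, at 3 libraries per sample type. All 3 organoid libraries lay above all 3 cell libraries in 2164 genes (16.2%) and below them in 2070 genes (15.5%), and 782 of the risen and 568 of the fallen genes were among these. With each of the 6 libraries left out in turn, 271 risen and 179 fallen genes kept their call every time. The counts of risen and fallen genes were 337 and 233 without cells p5, 291 and 236 without cells p8, 456 and 243 without organoids p8, and 460 and 231 without organoids p9. They were 1709 and 1702 without organoids p7. Of the 1431 genes called with p7, 1377 were also called without it in the same direction. Organoids p8 and p9 carried larger changes than p7: of the 859 risen genes, 515 were more than 2-fold above the cell mean in p7, 772 in p8 and 769 in p9.

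**Figure D1:**
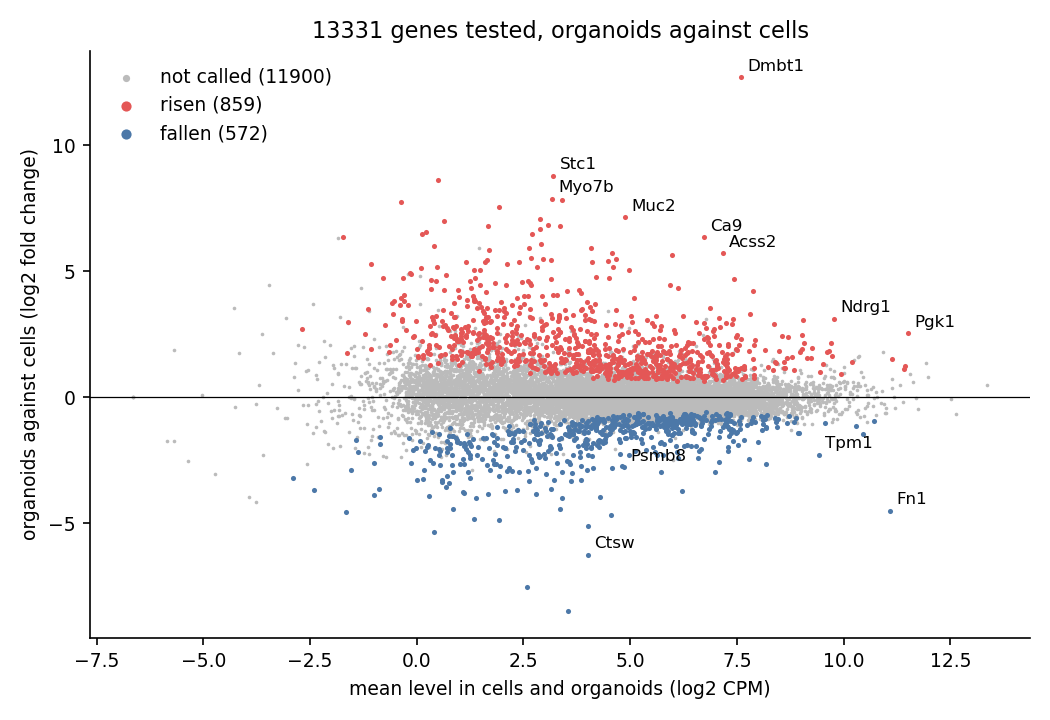
Each point is 1 of 13331 genes, with its mean level in cells and organoids (log2 CPM) on the x axis and its log2 fold change of organoids against cells on the y axis. The 859 risen genes (red) reach larger changes than the 572 fallen genes (blue), and highly expressed genes appear on both sides, such as Pgk1 at 2.54 and Fn1, which codes for fibronectin, at -4.51.

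Genes of the response to low oxygen formed the list with the largest risen share. Of 31 hypoxia targets tested outside glycolysis, 21 rose and 1 fell, with a median log2 fold change of 1.74. Of 23 genes of glycolysis and lactate handling, 14 rose and 1 fell, with a median of 1.22. Leaving out cells p8 lowered the count of risen hypoxia targets to 13, leaving out cells p5 or cells p8 lowered that of glycolysis genes to 9, and the counts were 26 and 19 without organoids p7. The call of the fallen glycolysis gene was lost without cells p5, and 2 fell without organoids p7. Of the risen members, 13 hypoxia targets and 9 glycolysis genes kept their call with each of the 6 libraries left out. The median difference from the cell mean was 0.82 in p7, 1.99 in p8 and 2.04 in p9 on the log2 scale for the hypoxia targets, and 0.54, 1.43 and 1.47 for the glycolysis genes.

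Ca9 codes for a carbonic anhydrase at the cell surface that regulates pH. It measured 2.69, 1.78 and 3.16 CPM in cells p5, p8 and p11 and 86.4, 279.9 and 267 CPM in organoids p7, p8 and p9 (log2 fold change 6.37, SE 0.52, adjusted p = 1.17e-04). The lowest organoid library, p7, thus lay well above the highest cell library, and p8 and p9 were about alike. Ndrg1, a stress-responsive gene induced by low oxygen, measured 207, 107 and 229.9 CPM in cells and 625, 2064 and 2050.5 CPM in organoids (log2 fold change 3.12, SE 0.45, adjusted p = 0.00201). Bnip3, a mitochondrial protein that promotes mitophagy, measured 43.4, 23.4 and 40.7 CPM in cells and 85.5, 423 and 408 CPM in organoids (log2 fold change 3.09, SE 0.51, adjusted p = 0.00387). For both genes p7 was the lowest organoid library and still above every cell library. The histone demethylase gene Kdm3a, which HIF also drives, measured 308, 305 and 300.1 CPM in cells and 632, 1673 and 1773 CPM in organoids (log2 fold change 2.16, SE 0.38, adjusted p = 0.00531). Ndufa4l2, a HIF target that dampens respiration, was almost unread in cells, with 0.13, 0.0556 and 0.226 CPM, and reached 9.2, 13.8 and 20.9 CPM in organoids (adjusted p = 1.17e-04). Stc1, which codes for the secreted glycoprotein stanniocalcin, had 0.0433, 0.0556 and 0 CPM in cells, which is under 3 counts in each library, and 13.5, 21.2 and 20.2 CPM in organoids (adjusted p = 3.08e-05). No fold is given for Stc1, since it would rest on the counts added before taking logs. Ndufa4l2 and Stc1 are not on the list of hypoxia targets and were named for the size of their rise.

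Along the glycolytic path, the glucose transporter gene Slc2a1 measured 190.3, 139.7 and 149 CPM in cells and 407, 1116 and 1140.2 CPM in organoids (log2 fold change 2.48, SE 0.35, adjusted p = 0.00194). Pfkfb3, which makes the activator of phosphofructokinase, measured 37.9, 39 and 39.7 CPM in cells and 70.5, 396 and 415 CPM in organoids (log2 fold change 2.92, SE 0.50, adjusted p = 0.00514). In both genes p7 was above the highest cell library, and p8 and p9 were several times higher again. Pgk1, phosphoglycerate kinase, was among the most abundant mRNAs that changed, with 969, 758 and 834 CPM in cells p5, p8 and p11 and 3368, 5692 and 5884 CPM in organoids p7, p8 and p9 (log2 fold change 2.54, SE 0.32, adjusted p = 0.00112). Aldoc and Eno2 are isoforms of aldolase and enolase best known from brain. Aldoc measured 0.0866, 0.389 and 0.169 CPM in cells and 7.65, 18.4 and 18.3 CPM in organoids (log2 fold change 6.10, SE 0.61, adjusted p = 4.04e-04, and 6.82 without cells p8). Eno2 measured 1.39, 0.612 and 2.09 CPM in cells and 7.21, 35.3 and 37 CPM in organoids (log2 fold change 4.27, SE 0.63, adjusted p = 0.00226). In both, every organoid library lay above every cell library. Ldha, which makes lactate, passed the test (1220.1, 1332 and 976 CPM in cells and 2159, 3933 and 3964 CPM in organoids, log2 fold change 1.51, SE 0.32, adjusted p = 0.0128) but lost its call without cells p5 (log2 fold change 1.54) or cells p8 (1.61). Gapdh passed it too (1443, 1956 and 1776 CPM in cells and 2665, 4259 and 4305 CPM in organoids, log2 fold change 1.12, SE 0.30, adjusted p = 0.0362) and, of the fits without 1 of the 6 compared libraries, kept its call only without organoids p7, with log2 fold changes of 1.00, 1.22, 1.14, 1.01 and 1.01 without cells p5, p8 and p11 and organoids p8 and p9. It was also lost without tumor 3 (edgeR adjusted p = 0.0587) but not without tumors 1 or 2. Pgk1 and Gapdh are often used as reference genes, and in these libraries they were not level between the sample types.

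The promoters of the hypoxia targets and glycolysis genes were searched on both strands for ACGTG, the core of the element that HIF binds, in the window from 250 bases before to 50 bases after the start of each gene in RefSeq (GRCr8). The core lay in 17 of 26 hypoxia targets that were tested and have a promoter there (65.4%) and in 11 of 22 glycolysis genes (50%), against 19.7% of all 27457 promoters. Among the called members alone it lay in 10 of 18 (55.6%) and 8 of 14 (57.1%), and 10 of 23 genes of endoplasmic reticulum chaperones held it as well (43.5%). ACGTG is also part of the E-box CACGTG, which lay in 5 of the 26 (19.2%) and 3 of the 22 (13.6%), against 6.65% of all promoters. A match is a description of the letters and not a bound site. Shown are the promoters of Ca9 at chr5:62558774-62559073 (plus strand) and Bnip3 at chr1:203154913-203155212 (minus strand) among the hypoxia targets and Aldoc at chr10:63715294-63715593 (plus strand) among the glycolysis genes. They were picked by the size of the called change, among members with a promoter there, no overlap between sample types and 10 CPM or more in the higher one. All 3 carry the core. Capitals mark ACGTG or its reverse complement.
Ca9: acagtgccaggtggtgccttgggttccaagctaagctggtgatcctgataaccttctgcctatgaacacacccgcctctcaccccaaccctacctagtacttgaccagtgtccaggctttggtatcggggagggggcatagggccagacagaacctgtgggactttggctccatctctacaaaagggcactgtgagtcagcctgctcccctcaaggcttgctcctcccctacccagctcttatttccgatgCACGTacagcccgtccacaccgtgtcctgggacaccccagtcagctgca
Bnip3: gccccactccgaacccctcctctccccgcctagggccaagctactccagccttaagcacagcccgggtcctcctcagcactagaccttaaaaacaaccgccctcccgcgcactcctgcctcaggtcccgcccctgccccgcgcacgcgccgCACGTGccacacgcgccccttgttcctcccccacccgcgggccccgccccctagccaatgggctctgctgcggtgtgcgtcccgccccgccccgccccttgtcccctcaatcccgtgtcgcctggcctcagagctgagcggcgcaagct
Aldoc: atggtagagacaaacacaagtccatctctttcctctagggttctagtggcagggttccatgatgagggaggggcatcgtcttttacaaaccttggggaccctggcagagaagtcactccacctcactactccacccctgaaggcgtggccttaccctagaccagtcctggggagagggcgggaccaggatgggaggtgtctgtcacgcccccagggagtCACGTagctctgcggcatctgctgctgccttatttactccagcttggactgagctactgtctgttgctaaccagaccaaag
In Bnip3 the 2 strands match at 1 place, which forms the E-box.

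Part of the genes of lipid synthesis rose in organoids, with p8 and p9 higher than p7. Of 34 genes of cholesterol synthesis and uptake tested, 15 rose and 0 fell by edgeR (1 at an unadjusted p under 0.05, 1 by DESeq2, 1 by limma and 1 by limma-voom), with a median log2 fold change of 1.57. The median difference from the cell mean was 0.21 in p7 against 2.05 in p8 and 2.03 in p9. Without p7, 27 members rose and 1 fell. The count of risen members was 4 without cells p5, 3 without cells p8 and 7 without organoids p8 or organoids p9. Ebp and Insig2, the latter named after its values were seen, were among the 3 members that kept their call with each library left out. Of 24 genes of fatty acid synthesis and desaturation, 7 rose (3 without cells p5 or cells p8, 14 without organoids p7), and Acss2, Me1 and Scd kept their call throughout. All organoid libraries lay above all cell libraries in 9 of the 34 cholesterol genes, beside 16.2% of all genes tested.

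Insig1, a sensor that holds back SREBP when sterols are plentiful and is itself an SREBP target, measured 105, 57.5 and 174 CPM in cells p5, p8 and p11 and 182, 1369.9 and 1279 CPM in organoids p7, p8 and p9 (log2 fold change 3.07, SE 0.63, adjusted p = 0.0118). Its p7 value was next to the highest cell value, while p8 and p9 were several times higher. The call for Insig1 was lost without cells p5 (log2 fold change 3.02) or cells p8 (2.76). Sqle, a control point of cholesterol synthesis, measured 408, 227 and 429.7 CPM in cells and 403, 1726 and 1684 CPM in organoids (log2 fold change 1.84, SE 0.46, adjusted p = 0.0286), with p7 within the range of the cells. Its call was lost without cells p5 (log2 fold change 1.95), cells p8 (1.60), organoids p8 (1.56) or organoids p9 (1.58).

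Ebp, a sterol isomerase late in the pathway, measured 15.5, 14 and 23.2 CPM in cells and 30.1, 153 and 154 CPM in organoids (log2 fold change 2.68, SE 0.50, adjusted p = 0.00759). Acss2, which makes acetyl-CoA from acetate, measured 3.77, 2.11 and 10.3 CPM in cells and 24, 424 and 404 CPM in organoids (log2 fold change 5.72, SE 0.97, adjusted p = 0.00476, and 6.58 without cells p11). Scd, the desaturase that makes oleate, measured 9.88, 9.01 and 52.3 CPM in cells and 103, 620.1 and 609 CPM in organoids (log2 fold change 4.23, SE 0.79, adjusted p = 0.00735, and 5.55 without cells p11). For these genes p7 was above all cell libraries, and cells p11 was the cell library closest to the organoids. Vldlr, a lipoprotein receptor that is on neither list of lipid genes, was high in all 3 organoid libraries alike (39.6, 21 and 43.4 CPM in cells and 212, 257 and 259 CPM in organoids, log2 fold change 2.81, SE 0.33, adjusted p = 7.19e-04).

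The sterol element TCACNCCAC, in either direction, was in 0 of the 25 promoters of tested cholesterol genes and in 1.13% of all promoters, so these letters were not in this window. CCAAT, the box that NF-Y binds beside SREBP in many of these genes, was in 19 of the 25 (76%) and in 12 of 19 fatty acid genes (63.2%), against 37.7% of all promoters. It was also in 21 of 23 genes of endoplasmic reticulum chaperones (91.3%). The promoters of Insig1 (chr4:8057720-8058019, minus strand), Ebp (chrX:16971212-16971511, plus strand) and Acss2 (chr3:164464453-164464752, plus strand), from RefSeq (GRCr8), are shown for members with large called changes, and capitals mark CCAAT or its reverse complement.
Insig1: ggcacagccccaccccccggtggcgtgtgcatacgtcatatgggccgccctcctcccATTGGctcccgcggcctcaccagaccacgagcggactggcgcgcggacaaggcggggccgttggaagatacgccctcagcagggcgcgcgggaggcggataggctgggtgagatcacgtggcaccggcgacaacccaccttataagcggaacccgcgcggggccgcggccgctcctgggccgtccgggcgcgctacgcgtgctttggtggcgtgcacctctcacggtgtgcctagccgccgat
Ebp: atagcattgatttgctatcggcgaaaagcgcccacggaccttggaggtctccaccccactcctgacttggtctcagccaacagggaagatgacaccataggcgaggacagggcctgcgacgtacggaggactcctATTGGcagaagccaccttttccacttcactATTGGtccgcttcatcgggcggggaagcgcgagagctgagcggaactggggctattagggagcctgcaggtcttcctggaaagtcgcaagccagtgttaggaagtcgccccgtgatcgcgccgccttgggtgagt
Acss2: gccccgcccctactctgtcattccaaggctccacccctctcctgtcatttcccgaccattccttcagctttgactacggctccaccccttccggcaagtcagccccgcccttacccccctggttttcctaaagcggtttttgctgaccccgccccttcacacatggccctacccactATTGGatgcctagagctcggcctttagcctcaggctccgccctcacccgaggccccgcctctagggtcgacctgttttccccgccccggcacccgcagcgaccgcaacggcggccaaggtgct
All 3 windows hold the box in the reverse direction.

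Chaperones and enzymes of the endoplasmic reticulum followed the same split between organoid libraries. Of 29 such genes tested, 9 rose and 0 fell by edgeR (0 at an unadjusted p under 0.05, 0 by DESeq2, 0 by limma and 0 by limma-voom), and the median difference from the cell mean was -0.13 in p7, 1.08 in p8 and 1.28 in p9. The count of risen genes was 23 without p7, 1 without cells p5 or cells p8, 3 without organoids p8 or organoids p9 and 5 without cells p11. P4hb, protein disulfide isomerase, measured 341, 309 and 262 CPM in cells and 447, 1116 and 1146 CPM in organoids (log2 fold change 1.57, SE 0.33, adjusted p = 0.0126). All organoid libraries lay above the cells, but the call was lost without cells p8 (log2 fold change 1.58).

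**Figure D2:**
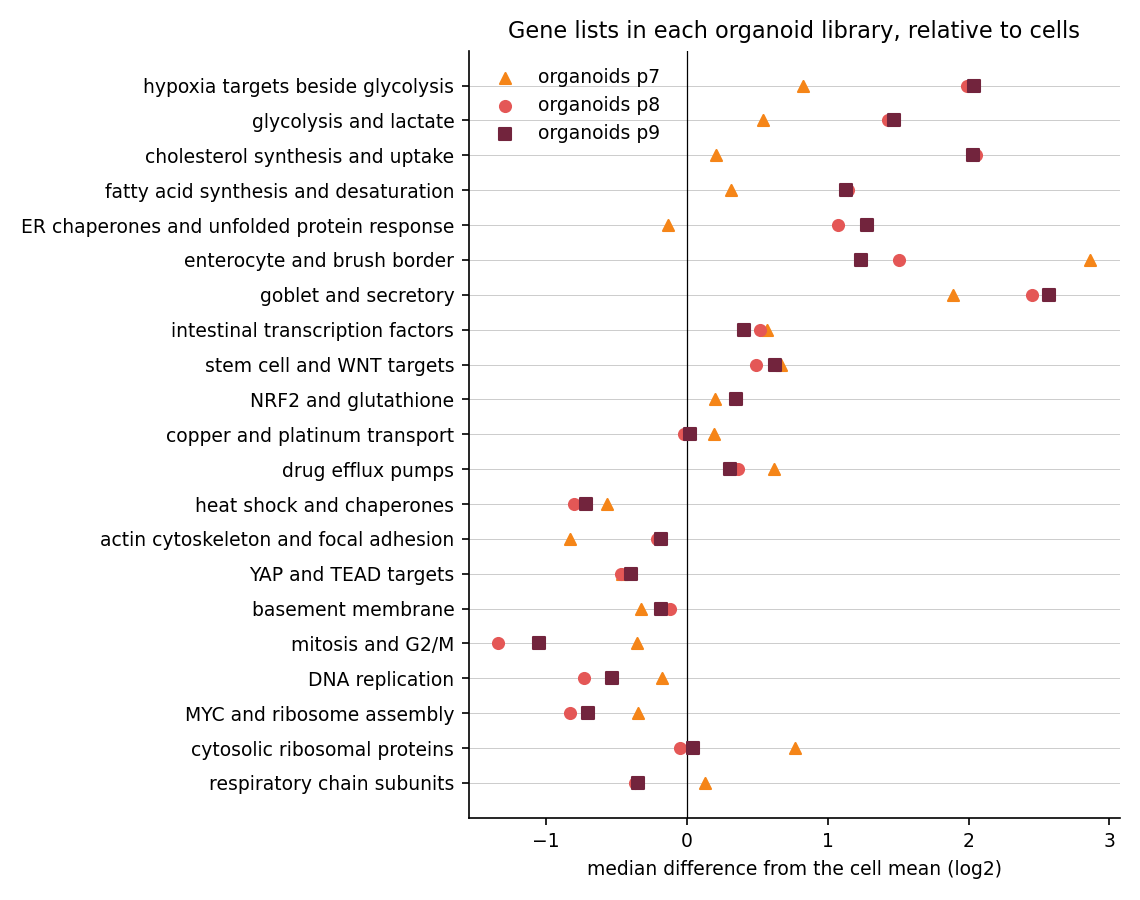
For each gene list (y axis), the point gives the median over its tested members of the log2 difference between 1 organoid library and the mean of the 3 cell libraries (x axis). Organoids p7 (triangles) are near 0 for cholesterol synthesis, at 0.21, where p8 and p9 are at 2.05 and 2.03, and are the highest of the 3 for the brush border, at 2.86.

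Many genes of the differentiated colon epithelium rose in organoids. Of 24 genes of enterocytes and the brush border tested, 11 rose and 0 fell by edgeR (0 at an unadjusted p under 0.05, 0 by DESeq2, 0 by limma and 0 by limma-voom), all 24 had a positive log2 fold change, and 7 kept their call with each library left out. Of 15 goblet and secretory genes, 10 rose (6 without cells p5 or cells p8) and 1 fell, the glycosyltransferase gene Galnt12 (2 fell without organoids p7). The medians were 2.26 and 2.30 on the log2 scale. Because the filter uses the mean over all 9 libraries, a gene almost unread in cells passes only where organoids or tumors are high. For such genes the direction is not independent of the filter. With a filter at a mean of 6, 7 of 16 brush border genes rose, with a median of 1.00. Without a filter, 19 of 39 rose, with a median of 2.14. For the goblet genes these medians were 1.95 and 1.63. For the brush border genes p7 showed the largest median difference from the cell mean (2.86, against 1.51 in p8 and 1.23 in p9).

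Myo7b codes for a myosin at the tips of microvilli. It had 0.0433, 0.0556 and 0.113 CPM in cells, under 3 counts in each library, and 28.2, 14.4 and 11.2 CPM in organoids (adjusted p = 8.32e-05). The water channel gene Aqp8, typical of colon surface cells, measured 1.6, 0.612 and 1.02 CPM in cells and 42.5, 57.7 and 48.2 CPM in organoids (log2 fold change 5.49, SE 0.43, adjusted p = 1.11e-04). Muc13, a mucin anchored in the membrane of absorptive cells, went from 0.0866, 0 and 0.339 CPM in cells to 21.5, 13 and 15.7 CPM in organoids (adjusted p = 2.41e-04). In these 3 genes the organoid libraries were within 3-fold of each other and far above all cells. The secreted goblet mucin Muc2 measured 0.477, 0.222 and 0.508 CPM in cells and 144, 15.3 and 17 CPM in organoids (log2 fold change 7.15, SE 1.33, adjusted p = 0.00718). Agr2, a chaperone for mucin folding, measured 0.0433, 0.111 and 0.113 CPM in cells and 53.8, 3.48 and 6.06 CPM in organoids (adjusted p = 0.00303), and Dmbt1, a secreted mucosal defence protein, measured 0, 0.167 and 0 CPM in cells and 1161, 2.08 and 6.06 CPM in organoids (adjusted p = 0.0185). These secretory genes were by far the highest in p7. Without p7 all 3 were still called, with a log2 fold change of 5.26 for Muc2, whereas the call for Dmbt1 was lost without cells p5, p8 or p11. No fold is given for Agr2 and Dmbt1, which had 3 counts or fewer in each cell library.

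Among 21 transcription factors of the intestine, 4 rose and 0 fell by edgeR (2 at an unadjusted p under 0.05, 1 by DESeq2, 0 by limma and 2 by limma-voom). Without organoids p7, 6 rose and 2 fell, and without tumor 1, 7 rose and 1 fell. Hnf4a, a nuclear receptor of the mature epithelium, measured 14.1, 4.73 and 6.38 CPM in cells and 64.6, 38.9 and 32.3 CPM in organoids (log2 fold change 2.42, SE 0.42, adjusted p = 0.00531, and 3.03 without cells p5). Elf3, an epithelial Ets factor, measured 37.3, 18.3 and 67.7 CPM in cells and 159, 203 and 196 CPM in organoids (log2 fold change 2.18, SE 0.38, adjusted p = 0.00514). Maf, a factor of mature enterocytes in mice, measured 1.39, 0.612 and 1.02 CPM in cells and 21.2, 55.5 and 54.3 CPM in organoids (log2 fold change 5.41, SE 0.44, adjusted p = 1.17e-04). All organoid libraries lay above all cell libraries in these 3 genes. Cdx2, the factor that defines intestinal identity, did not pass the test (38.5, 45.7 and 49.8 CPM in cells and 134, 38.9 and 45.2 CPM in organoids, log2 fold change 0.70, SE 0.39, adjusted p = 0.265). It was high in p7 only, and without p7 its log2 fold change was -0.12.

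Of 26 stem cell genes and WNT targets, 7 rose and 0 fell by edgeR (0 at an unadjusted p under 0.05, 0 by DESeq2, 0 by limma and 2 by limma-voom), with 4 risen without cells p5, 3 without cells p8 and 10 without organoids p7. Lgr5, the receptor that marks crypt stem cells, measured 4.16, 6.12 and 2.26 CPM in cells and 26.6, 12.3 and 10.3 CPM in organoids (log2 fold change 1.98, SE 0.50, adjusted p = 0.0294). Every organoid library was above the cells, with p7 the highest, but the call was lost without cells p5 (log2 fold change 1.97), p8 (2.34) or p11 (1.68).

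**Figure D3:**
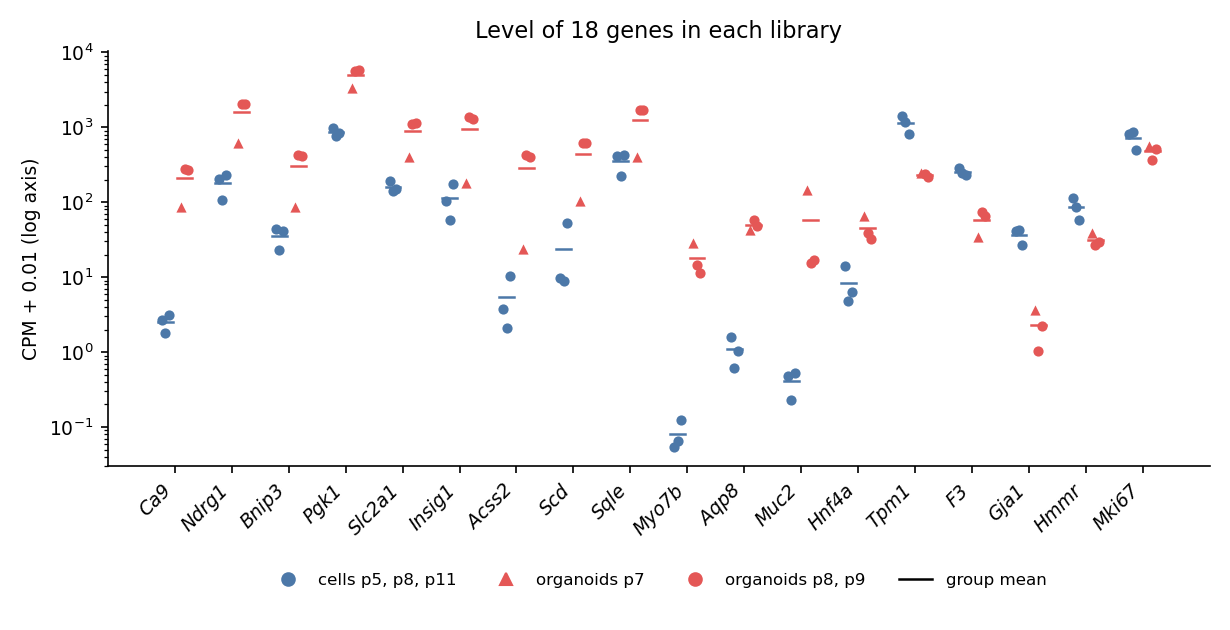
Level of 18 genes in each library on a log axis (CPM + 0.01), with cells in blue, organoids in red, organoids p7 as triangles and horizontal lines at the group means. Ca9 spans 2.69, 1.78 and 3.16 CPM in cells and 86.4, 279.9 and 267 CPM in organoids, Sqle and Mki67 overlap between the sample types, and Tpm1 falls from 1408, 1172 and 812 to 245, 237 and 215 CPM.

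Some genes of the contractile cytoskeleton and some YAP targets fell in organoids, while most did not pass the test. Of 39 genes of the actin cytoskeleton and focal adhesions tested, 0 rose by edgeR (1 at an unadjusted p under 0.05, 0 by DESeq2, 0 by limma and 4 by limma-voom) and 7 fell (4 without cells p5, cells p8, organoids p8 or organoids p9), with a median log2 fold change of -0.38. Of 25 YAP and TEAD targets, 0 rose by edgeR (2 at an unadjusted p under 0.05, 0 by DESeq2, 0 by limma and 5 by limma-voom) and 6 fell (2 without cells p8, 3 without organoids p8 or organoids p9), with a median of -0.48. All organoid libraries lay below all cell libraries in 15 of the 25 YAP targets, 9 of them without a call, beside 15.5% of all genes tested. TEAD's motif GGAATG was in 7 of 17 promoters of tested YAP targets (41.2%), against 13.9% of all promoters. Among called members it was in 2 of 4. The same 17 promoters were also above all promoters for the hypoxia core ACGTG (35.3% against 19.7%) and the E-box CACGTG (23.5% against 6.65%).

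Tpm1, a tropomyosin of stress fibres, measured 1408, 1172 and 812 CPM in cells p5, p8 and p11 and 245, 237 and 215 CPM in organoids p7, p8 and p9 (log2 fold change -2.28, SE 0.25, adjusted p = 5.88e-04). The 3 organoid libraries were almost alike, and the lowest cell library was still more than 3-fold above them. F3, which codes for tissue factor, measured 290.4, 245 and 229 CPM in cells and 34.8, 73.2 and 65.5 CPM in organoids (log2 fold change -2.14, SE 0.27, adjusted p = 0.00112). The matricellular gene Ccn1 measured 107, 172 and 162 CPM in cells and 15.1, 51.6 and 49.6 CPM in organoids (log2 fold change -1.93, SE 0.40, adjusted p = 0.0118), and its call was lost without cells p8 (log2 fold change -1.80). Its relative Ccn2 measured 360.2, 403 and 176 CPM in cells and 170.2, 58.3 and 57.7 CPM in organoids (log2 fold change -1.71, SE 0.44, adjusted p = 0.0322). In Ccn2 p7 was just below the lowest cell library, and the call was lost without cells p5 (-1.60), cells p8 (-1.49), organoids p8 (-1.46) or organoids p9 (-1.45), and without tumor 2 (edgeR adjusted p = 0.0502), while without p7 the log2 fold change was -2.47. Vgll1, a cofactor of the TEAD factors, measured 16.8, 16.5 and 25.5 CPM in cells and 1.98, 0.168 and 0.466 CPM in organoids (log2 fold change -4.43, SE 0.65, adjusted p = 0.00218, and -5.98 without organoids p7). Gja1, the gap junction protein connexin 43, measured 40.7, 42.2 and 27.1 CPM in cells and 3.68, 1.01 and 2.2 CPM in organoids (log2 fold change -3.98, SE 0.42, adjusted p = 4.59e-04). Vgll1 and Gja1 are on neither the cytoskeleton list nor the YAP list and were named for the size of their fall.

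Integrin beta 1, the common partner of laminin and collagen receptors, did not pass the test (Itgb1, 1002, 845 and 712 CPM in cells and 612, 1153 and 1144 CPM in organoids, log2 fold change 0.18, SE 0.28, adjusted p = 0.707). Of 29 matrix and fibroblast markers tested, 7 fell and 1 rose by edgeR (2 rose without cells p11 and 3 without organoids p7), with a median log2 fold change of -0.81. The risen member was Col6a3, a chain of collagen VI. With all libraries, 24.1% of these markers fell and 3.45% rose, against 4.29% and 6.44% of all genes tested. Fbln1, a matrix glycoprotein, measured 189, 154 and 145 CPM in cells and 78.8, 36 and 38.9 CPM in organoids (log2 fold change -1.67, SE 0.29, adjusted p = 0.0055). Of 31 genes of TGF-beta and BMP signaling, 3 rose and 4 fell by edgeR, with a median log2 fold change of -0.11, and without cells p8 1 rose and 1 fell (2 fell without organoids p8 or organoids p9). Among the risen members was Tgfbr3, a coreceptor for TGF-beta named after its values were seen (12.7, 13.3 and 13.1 CPM in cells and 29, 32.7 and 35.4 CPM in organoids, log2 fold change 1.31, SE 0.22, adjusted p = 0.00397). Over the whole list, 15 genes had a positive and 16 a negative log2 fold change. The calls were 9.68% risen and 12.9% fallen, against 6.44% and 4.29% of all genes tested. Tgfbi and Pmepa1, targets of the pathway, are not on that list. Tgfbi measured 13.5, 10.8 and 9.38 CPM in cells and 2.81, 3.76 and 3.26 CPM in organoids (log2 fold change -1.78, SE 0.27, adjusted p = 0.00255). Pmepa1 measured 400.4, 476 and 244 CPM in cells and 37.6, 89.3 and 77.7 CPM in organoids (log2 fold change -2.45, SE 0.41, adjusted p = 0.00467). Tgfb3, a ligand of the pathway and one of the 4 fallen members, measured 55.9, 38.7 and 38.4 CPM in cells and 22, 11.5 and 9.06 CPM in organoids (log2 fold change -1.64, SE 0.32, adjusted p = 0.00916). In Fbln1, Tgfbi, Pmepa1 and Tgfb3 every organoid library lay below every cell library. The summed level of the 39 matrix and fibroblast markers was 2485 to 7023 CPM in cells and 531 to 786 CPM in organoids, of which most in cells was fibronectin, and 5 of the markers had no read in the 6 libraries. Fewer cells of a type and less RNA per cell cannot be told apart in bulk samples, and the part of other cell types in these results was not tested.

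The protease genes Plat and Adamts1 went the other way. Plat, the tissue plasminogen activator, measured 6.37, 8.84 and 4.35 CPM in cells and 33.7, 194 and 171 CPM in organoids (log2 fold change 4.35, SE 0.56, adjusted p = 0.00117), and Adamts1, a protease of the extracellular matrix, measured 2.43, 1.22 and 3.16 CPM in cells and 10.3, 25.4 and 25.6 CPM in organoids (log2 fold change 3.16, SE 0.50, adjusted p = 0.00333). Both were lowest in p7 among the organoids. Krt14, a keratin of basal cells, fell (350.0, 165 and 156 CPM in cells and 17.9, 34 and 34.7 CPM in organoids, log2 fold change -2.96, SE 0.62, adjusted p = 0.0129), with the call lost without cells p5 (log2 fold change -2.48).

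The 3 genes with the largest falls among those at 10 CPM or more belonged to none of these groups. Ctsw, a cathepsin best known from cytotoxic lymphocytes, measured 25.3, 51 and 19.3 CPM in cells and 0.29, 0.674 and 0.266 CPM in organoids (log2 fold change -6.25, SE 0.56, adjusted p = 2.31e-04). B3gnt5, which builds lacto-series glycolipids, measured 34.6, 27.9 and 31.1 CPM in cells and 0.823, 0.674 and 1.2 CPM in organoids (log2 fold change -5.12, SE 0.61, adjusted p = 7.96e-04). Wnk3, a kinase that controls chloride transport, measured 63.8, 43.3 and 27.2 CPM in cells and 0.871, 2.25 and 2.2 CPM in organoids (log2 fold change -4.67, SE 0.46, adjusted p = 3.93e-04). All 3 were within 3-fold among the cells and under 3 CPM in every organoid library. The summed level of 28 leukocyte markers was 39.3 to 60.1 CPM in cells and 29 to 74.9 CPM in organoids, with 11 to 14 of them read in each of the 6 libraries.

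**Figure D4:**
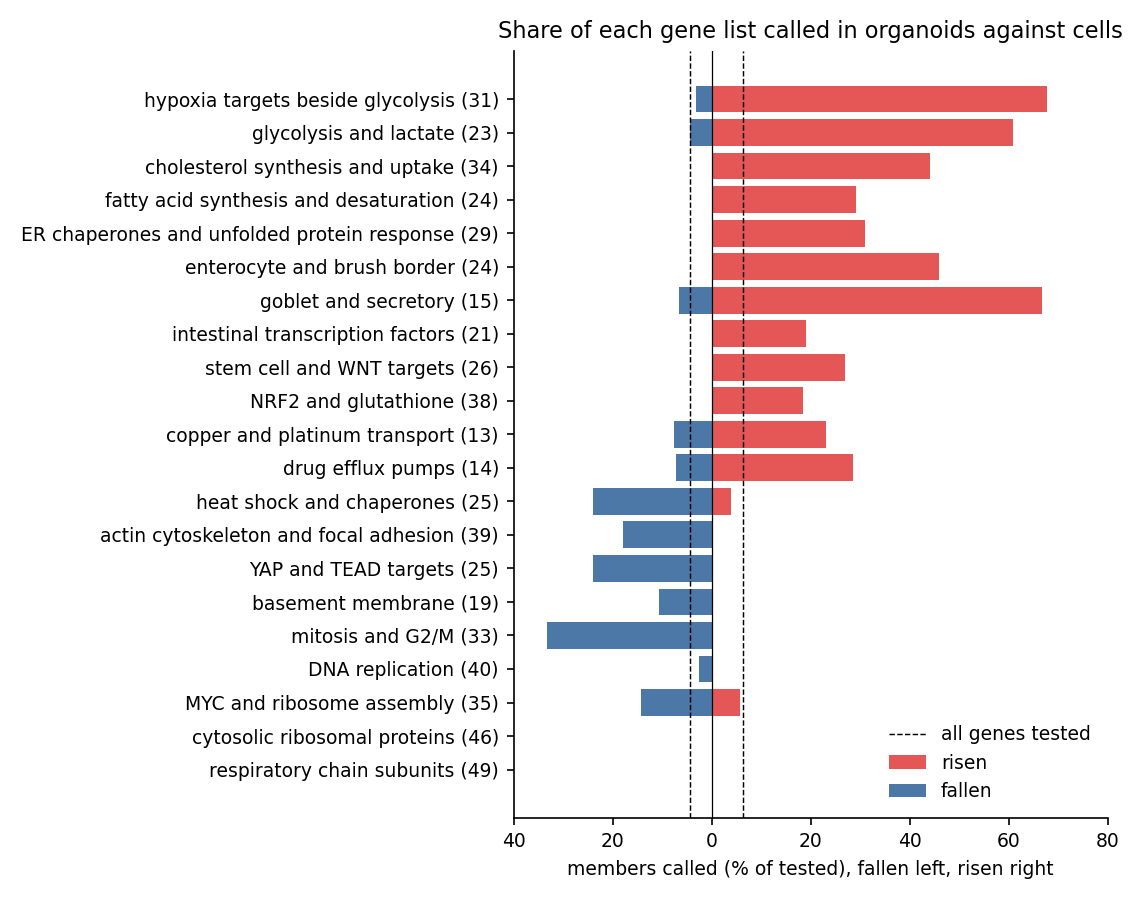
Share of the tested members of each gene list that rose (red, to the right) or fell (blue, to the left) in organoids, in percent, with the number tested in brackets. Dashed lines mark the 6.44% risen and 4.29% fallen over all genes tested. Hypoxia targets (67.7%) and goblet genes (66.7%) have the largest risen shares, mitosis the largest fallen share (33.3%), and ribosomal protein and respiratory chain genes have no call.

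Part of the genes of mitosis fell in organoids, whereas most of those of DNA replication did not pass the test. All 33 mitosis and G2/M genes tested had a negative log2 fold change, with a median of -0.93, and 11 fell while 0 rose by edgeR (0 at an unadjusted p under 0.05, 0 by DESeq2, 0 by limma and 0 by limma-voom). The median difference from the cell mean was -0.36 in p7, -1.34 in p8 and -1.05 in p9. The count of fallen genes was 30 without p7, 18 without cells p11 and 1 without cells p5, cells p8, organoids p8 or organoids p9, and 6 without tumor 2 or tumor 3. With the 6 compared libraries alone it was 3. Hmmr, a receptor and spindle protein, kept its call with each of the 6 compared libraries left out (115, 85.5 and 58.2 CPM in cells and 38.4, 27 and 29.2 CPM in organoids, log2 fold change -1.45, SE 0.27, adjusted p = 0.00759). Kif20a, a kinesin of cytokinesis, measured 193, 197 and 111 CPM in cells and 91, 43 and 48.3 CPM in organoids (log2 fold change -1.46, SE 0.34, adjusted p = 0.0203), with log2 fold changes of -1.34, -1.32, -1.26 and -1.31 where the call was lost, without cells p5, cells p8, organoids p8 and organoids p9. Mki67, which codes for the proliferation marker Ki-67, did not pass the test (822, 863 and 491 CPM in cells and 566, 361 and 516 CPM in organoids, log2 fold change -0.59, SE 0.31, adjusted p = 0.232). Its p7 and p9 values lay within the range of the cells.

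Of 40 DNA replication genes tested, 1 fell and 0 rose by edgeR (0 at an unadjusted p under 0.05, 0 by DESeq2, 0 by limma and 0 by limma-voom). The fallen share was 2.5%, against 4.29% of all genes tested. The count of fallen genes was 8 without cells p11, 13 without organoids p7 and 3 without tumor 1. The fallen gene was Tk1, thymidine kinase (118, 169 and 91.6 CPM in cells and 69.9, 35.6 and 39.9 CPM in organoids, log2 fold change -1.38, SE 0.29, adjusted p = 0.0138), which lost its call without cells p8 (log2 fold change -1.11), organoids p8 (-1.20) or organoids p9 (-1.26). Of 35 genes of MYC and ribosome assembly, 5 fell (21 without organoids p7, 11 without cells p11, 1 without cells p5 and no call left without cells p8, organoids p8 or organoids p9) and 2 rose (1 without cells p8). With all libraries, 14.3% of the list fell and 5.71% rose, against 4.29% and 6.44% of all genes tested. The risen pair were Mxd1 and Mxd4, whose proteins oppose MYC. Mxd1 measured 20.7, 10.8 and 23.2 CPM in cells and 28.8, 316 and 301 CPM in organoids (log2 fold change 3.56, SE 0.69, adjusted p = 0.00882), with p7 close to the cells, and lost its call without cells p8 (log2 fold change 3.29). Btg2, an antiproliferative gene and p53 target, was nearly the same in all organoid libraries (31.1, 20.8 and 42.1 CPM in cells and 132, 130.3 and 129.8 CPM in organoids, log2 fold change 2.06, SE 0.31, adjusted p = 0.00228), as was the p53 target Sesn1 (9.05, 8.06 and 11.3 CPM in cells and 22.9, 24.6 and 25 CPM in organoids, log2 fold change 1.35, SE 0.25, adjusted p = 0.00753). For both, all organoids lay above all cells. Of the 26 p53 targets tested, 3 rose (11.5%) and 1 fell (3.85%) by edgeR, against 6.44% and 4.29% of all genes tested. Their median log2 fold change was -0.04, with 13 positive and 13 negative values. Without cells p5, cells p8, organoids p8 or organoids p9, 2 rose and no fall was called. Without organoids p7, 8 rose and 2 fell.

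Of 25 heat shock genes and chaperones, 6 fell and 1 rose by edgeR, with a median log2 fold change of -0.65. That is 24% fallen and 4% risen, against 4.29% and 6.44% of all genes tested. The study treats these cells with heat, but none of the 6 libraries was labelled as heated. The count of fallen genes was 14 without organoids p7, 12 without cells p11, 1 without cells p5, cells p8 or organoids p8, 2 without organoids p9 and 3 without tumor 2 or tumor 3. The small heat shock protein genes Hspb1 and Hspb8 moved in opposite directions: Hspb1 measured 43.6, 18.9 and 18.8 CPM in cells and 7.21, 6.63 and 6.99 CPM in organoids (log2 fold change -1.96, SE 0.34, adjusted p = 0.00493), and Hspb8 measured 17.7, 12.8 and 21.7 CPM in cells and 46.6, 66.9 and 68.5 CPM in organoids (log2 fold change 1.80, SE 0.32, adjusted p = 0.00546). In neither did the sample types overlap.

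Since the study gave these cells oxaliplatin and mitomycin-C, genes that move or activate the drugs were examined in these libraries, none of which was labelled as given a drug. Of 13 genes of copper and platinum transport tested, 3 rose and 1 fell by edgeR. These were 23.1% and 7.69% of the list, against 6.44% and 4.29% of all genes tested. The 3 risen genes kept their call with each compared library left out. The fallen gene lost its call without any 1 of the cell libraries, organoids p8, organoids p9, tumor 2 or tumor 3, and 2 fell without organoids p7. Atp7a and Atp7b are copper pumps that also export platinum drugs. Atp7a measured 34.1, 21.4 and 29 CPM in cells p5, p8 and p11 and 80.3, 234 and 258 CPM in organoids p7, p8 and p9 (log2 fold change 2.76, SE 0.42, adjusted p = 0.00254). Atp7b measured 1.56, 0.946 and 2.15 CPM in cells and 10.6, 36.9 and 34.4 CPM in organoids (log2 fold change 4.13, SE 0.59, adjusted p = 0.00194). Both were lowest in p7 among the organoids, where they were still above all cells. Slc31a1, the main copper importer, did not pass the test (61.4, 55.6 and 60.2 CPM in cells and 67.5, 72.7 and 75.7 CPM in organoids, log2 fold change 0.29, SE 0.18, adjusted p = 0.318).

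Of 14 drug efflux pumps, 4 rose and 1 fell by edgeR (2 rose without cells p5, p8 or p11, organoids p9, tumor 2 or tumor 3). With all libraries the shares were 28.6% and 7.14%, against 6.44% and 4.29% of all genes tested. Abcb1a and Abcb1b code for P-glycoprotein in rats, and as close copies they may share reads. Abcb1a measured 39.9, 18.9 and 49.5 CPM in cells and 146, 195 and 220.1 CPM in organoids (log2 fold change 2.37, SE 0.45, adjusted p = 0.008). Abcb1b measured 34.9, 29.1 and 19.1 CPM in cells and 108, 49.2 and 50.6 CPM in organoids (log2 fold change 1.32, SE 0.37, adjusted p = 0.0429), and its call was lost without cells p5 (log2 fold change 1.52), p8 (1.36) or p11 (1.12) and without organoids p7 (0.81) or p9 (1.51), as well as without tumor 2 or tumor 3 (edgeR adjusted p = 0.064 and 0.0574). Both were higher in every organoid library than in any cell library. Abcc6, a transporter of the same superfamily, measured 0.26, 0.334 and 1.07 CPM in cells and 3.58, 18.1 and 14.9 CPM in organoids (log2 fold change 4.47, SE 0.70, adjusted p = 0.00321, and 5.34 without cells p11). Abcg2, the breast cancer resistance protein, went down (14.8, 23.2 and 9.38 CPM in cells and 4.6, 3.14 and 2.33 CPM in organoids, log2 fold change -2.23, SE 0.41, adjusted p = 0.00672).

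Nqo1, a quinone reductase that can activate mitomycin-C, measured 59.1, 46.1 and 47.9 CPM in cells and 129, 196 and 211 CPM in organoids (log2 fold change 1.81, SE 0.24, adjusted p = 0.00141). Every organoid library was at least 2-fold above every cell library. Nqo1 was the only gene that rose among 13 mitomycin-activating reductases tested, and 1 fell by edgeR. That is 7.69% each, against 6.44% risen and 4.29% fallen of all genes tested, with a median log2 fold change of 0.08. The fallen gene lost its call without cells p5, organoids p8, organoids p9 or tumor 2, and 3 rose and 2 fell without organoids p7. Por, the P450 reductase that also activates the drug, did not pass the test with all libraries (113, 89.8 and 101 CPM in cells and 121, 157 and 162 CPM in organoids, log2 fold change 0.53, SE 0.19, adjusted p = 0.0914) and passed it without p7 (log2 fold change 0.62). Among 27 genes of nucleotide excision repair, which removes platinum adducts, 0 rose by edgeR (1 at an unadjusted p under 0.05, 1 by DESeq2, 0 by limma and 1 by limma-voom) and 0 fell (5 at an unadjusted p under 0.05, 1 by DESeq2, 0 by limma and 13 by limma-voom). Without cells p11 1 of them fell, and without organoids p7 5 fell. Ercc1, which codes for a subunit of a nuclease complex of that pathway, measured 41.2, 65.7 and 47.4 CPM in cells and 17.2, 49.7 and 46.8 CPM in organoids (log2 fold change -0.44, SE 0.36, adjusted p = 0.449), with the lowest value in p7. Of 36 genes of crosslink and recombination repair, 2 fell and 0 rose by edgeR (1 at an unadjusted p under 0.05, 1 by DESeq2, 0 by limma and 2 by limma-voom). These 2 are 5.56% of the list, close to the 4.29% fallen of all genes tested. Without organoids p7 12 fell and 1 rose, and both calls were lost without cells p5, cells p8, organoids p8, organoids p9, tumor 2 or tumor 3.

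Among 30 apoptosis regulators, 4 rose and 3 fell by edgeR (1 rose without cells p5, cells p8 or organoids p9, 2 without organoids p8 and 8 without organoids p7, and 5 fell without cells p11 or tumor 1, 6 without organoids p7 and 2 without each of the other compared libraries). The risen and fallen shares were 13.3% and 10%, against 6.44% and 4.29% of all genes tested. The initiator caspase gene Casp8 measured 107, 111 and 116 CPM in cells and 46.9, 63.8 and 57.5 CPM in organoids (log2 fold change -0.99, SE 0.18, adjusted p = 0.00672), with no overlap between the sample types. Bcl2l11, which codes for the death-promoting protein BIM, measured 43.8, 31.2 and 80.8 CPM in cells and 148, 262 and 249 CPM in organoids (log2 fold change 2.08, SE 0.35, adjusted p = 0.00444).

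**Figure D5:**
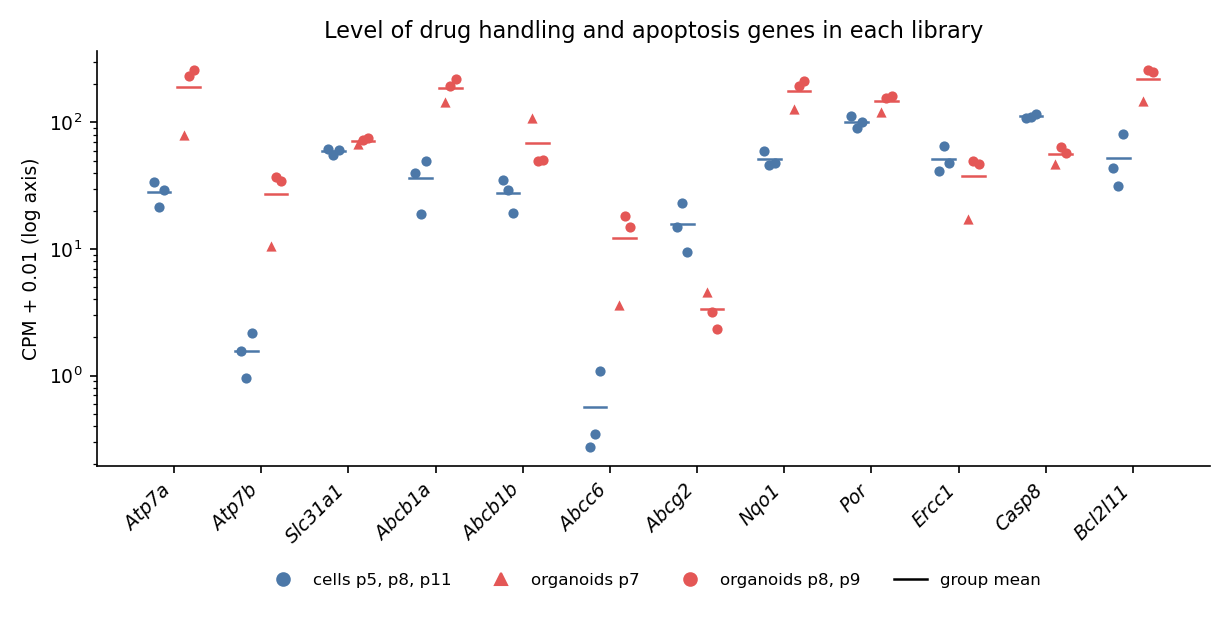
Level of 12 genes of drug transport, drug activation, repair and apoptosis in each library on a log axis (CPM + 0.01), with cells in blue, organoids in red, organoids p7 as triangles and horizontal lines at the group means. Atp7b lies at 1.56, 0.946 and 2.15 CPM in cells and 10.6, 36.9 and 34.4 CPM in organoids, whereas Slc31a1 lies at 61.4, 55.6 and 60.2 and 67.5, 72.7 and 75.7 CPM and Ercc1 overlaps.

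Genes of immune signaling moved in both directions. Of 32 interferon response genes tested, 7 rose and 2 fell by edgeR (4 rose without cells p5, cells p8 or organoids p8, and 11 without organoids p7, while 1 fell without cells p5, cells p8 or organoids p9 and 3 without organoids p7). These were 21.9% and 6.25% of the list, against 6.44% and 4.29% of all genes tested. Ifi27, an interferon-induced mitochondrial protein, measured 3.42, 5.34 and 8.53 CPM in cells and 19, 31.3 and 30.6 CPM in organoids (log2 fold change 2.23, SE 0.39, adjusted p = 0.00569), while Bst2, the surface protein tetherin, measured 159, 86.6 and 89 CPM in cells and 39.5, 17.4 and 17.4 CPM in organoids (log2 fold change -2.17, SE 0.40, adjusted p = 0.00683). Psmb8, a subunit of the immunoproteasome, was the only member that fell among 22 genes of antigen processing (59.9, 45.7 and 45.5 CPM in cells and 9.87, 5.84 and 6.26 CPM in organoids, log2 fold change -2.78, SE 0.29, adjusted p = 4.65e-04), and 5 fell without p7. That 1 gene is 4.55% of the list, close to the 4.29% fallen over all genes tested. Il33, an alarmin cytokine and among the most abundant mRNAs that fell, measured 2395, 1507 and 2255 CPM in cells and 681, 825 and 721 CPM in organoids (log2 fold change -1.47, SE 0.26, adjusted p = 0.00531). Cxcl2, a neutrophil chemokine, rose (0.173, 0.389 and 1.41 CPM in cells and 2.42, 24.3 and 24.4 CPM in organoids, log2 fold change 4.71, SE 0.89, adjusted p = 0.00759, and 5.92 without cells p11), with p7 the lowest organoid library. In all 5 genes the sample types did not overlap.

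Among the 27 ligands of the EGF receptor and genes of ERK output tested, 6 rose and 1 fell by edgeR (3 rose without cells p5, cells p8, organoids p8 or organoids p9, while the fallen gene lost its call without any 1 of the cell libraries, organoids p8, organoids p9, tumor 2 or tumor 3, and 2 fell without tumor 1). With all libraries, 22.2% of the list rose and 3.7% fell, against 6.44% and 4.29% of all genes tested. Spry4, Epha4 and Erbb3 kept their call with each library left out. Spry4, a feedback inhibitor of ERK signaling, measured 7.88, 9.01 and 18.5 CPM in cells and 45, 105 and 99.8 CPM in organoids (log2 fold change 2.82, SE 0.41, adjusted p = 0.0021). Erbb3, a receptor of the EGF receptor family, measured 63.6, 59.2 and 82.1 CPM in cells and 167, 196 and 190.2 CPM in organoids (log2 fold change 1.43, SE 0.23, adjusted p = 0.00386), and Epha4, an ephrin receptor, measured 29.5, 26.3 and 32 CPM in cells and 74.2, 154 and 178 CPM in organoids (log2 fold change 2.21, SE 0.39, adjusted p = 0.00534). For Erbb3 the 3 organoid libraries were within 1.5-fold of each other. Of 46 cytosolic ribosomal protein genes, 0 rose by edgeR (2 at an unadjusted p under 0.05, 0 by DESeq2, 0 by limma and 4 by limma-voom) and 0 fell (0 at an unadjusted p under 0.05, 0 by DESeq2, 0 by limma and 1 by limma-voom). Of 49 respiratory chain subunits, 0 rose by edgeR (0 at an unadjusted p under 0.05, 0 by DESeq2, 0 by limma and 0 by limma-voom) and 0 fell (6 at an unadjusted p under 0.05, 1 by DESeq2, 0 by limma and 28 by limma-voom), but 8 fell without organoids p7 and 1 without cells p11.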

How the data were processed

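mRNA of the CC-531 line was sequenced in 9 libraries, 3 per sample type. The submitters' processing notes name FastQC 0.11.9, MultiQC 1.9, cutadapt 1.18 and STAR 2.7.4 with the build mRatBN7.2. Although named as normalized, the deposited table holds raw counts for 34322 genes, and all its columns were used. Whether the counting used strand is not given, so overlapping and antisense genes cannot be told apart.

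Genes were kept at a mean quantile-normalized log2(count + 1) of at least 4 over the 9 libraries, the filter of the authors. It left 99.768% to 99.877% of the counts of the compared libraries. In R 4.3.3 with edgeR 4.0.16, counts were scaled by TMM, 1 mean per sample type was fitted over all 9 libraries with glmQLFit (6 residual degrees of freedom), and organoids were set against cells with a two-sided glmQLFTest and Benjamini-Hochberg adjustment over all genes tested. The SE is the size of the log2 fold change divided by the root of F, and CPM are TMM-scaled. Alternatives also used limma 3.58.1 and DESeq2 1.42.0.

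The comparison, gene lists and rules were chosen with earlier results of these data known. Named genes were called, did not overlap between sample types, reached 10 CPM in the higher one and had the largest changes by fold, by CPM difference or within a list, with the most abundant member of each list and 19 genes of the drugs, assays and pathways of the study added. A few of the genes that this rule names are not reported here. Of 1358 list genes, 1342 were in the table, 4 of them by synonyms looked up after the data were seen, and 1131 were tested. Promoters are from RefSeq (GRCr8), which is not the build of the counts, and 1046 list genes had one.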

Additional observations from a re-analysis of the deposited data

How the results depend on the processing

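With 3 libraries per sample type, of which organoids p8 and p9 were nearly alike, the spread of the organoids rests mostly on p7. Summing p8 and p9 into 1 sample, an alternative chosen after seeing the data, gave 465 risen and 240 fallen genes. The 859 risen and 572 fallen genes became 534 and 365 with the 6 compared libraries alone, 547 risen with quantile normalization and limma, 1317 risen without a filter, 1352 and 1008 with DESeq2, 3681 and 3478 with limma-voom and library weights, and 206 and 102 against a 2-fold threshold. Over the fits that left out 1 library, tumors included, they ranged from 291 to 1709 and from 231 to 1702. Centering on housekeeping genes gave 630 and 383, but 3 of that list (Gapdh, Pgk1 and Gpi) rose. DESeq2 size factors, upper-quartile scaling, filters at a mean of 6 or by filterByExpr and a robust dispersion kept both counts within 1.5 times. No gene called here was called in the opposite direction under any alternative. Of 1839 values of named genes under the alternatives, 1738 kept their direction and side of the threshold, 92 lost the call, 7 gained it and 2 changed sign, both for Cdx2, whose log2 fold change was -0.044 with limma-voom and -0.12 to 1.01 with 1 compared library left out. The cause of these differences was not tested. No paired analysis was possible because the sample types share only passage number 8.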
